A study of Mus musculus with 30 samples.

Results

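The expression of 10 genes that act in the removal of dying cells was followed in primary mouse macrophages and hepatocytes given ligands of the liver X receptors (LXR). The genes are Mertk, Axl, Gas6, Mfge8, Cd5l, Stab1, Stab2, C1qa, C1qb and C1qc. They were taken from the tables by symbol, and all 10 were found among 24063 genes of the macrophage count table and among 24453 genes of the hepatocyte table. Macrophages were drawn into the peritoneum with thioglycollate, an irritant, and cultured in RPMI medium. Each of their 6 groups had 3 libraries of polyadenylated RNA (18 in all). Hepatocytes were cultured in Hepatozyme, with 2 libraries in each of 6 groups (12 in all). All groups, vehicle included, spent 24 h before treatment with mevastatin (10 uM), which blocks sterol synthesis, and mevalonate (50 uM), in serum low in lipids, and were then exposed to the ligand or vehicle for 18 to 20 h. The groups received vehicle (DMSO or ethanol), desmosterol at 10 uM, or DMHCA, MePipHCA, GW3965 or T0901317 at 1 uM. The labels give no strain, sex or age, and do not say whether replicates were separate animals or cultures, so every p-value here reflects the spread of these libraries alone, which may be technical.

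Phagocytes take up apoptotic cells by several routes. Mertk and Axl are receptor kinases of the TAM family, which bind phosphatidylserine on dying cells through the bridging protein Gas6. Mfge8 bridges the same lipid to integrins, C1q (built from the chains C1qa, C1qb and C1qc) coats dying cells and debris, and the stabilins Stab1 and Stab2 are large scavenger receptors that can bind phosphatidylserine. Cd5l, also called AIM, is a secreted protein of tissue macrophages. LXR alpha and beta are nuclear receptors that are activated by oxysterols and by desmosterol, an intermediate of cholesterol synthesis, and Mertk and Cd5l are known LXR target genes in macrophages. DMHCA and MePipHCA are cholenamides, steroids with an amide on the side chain. They differ in that amide, which is a dimethylamide in DMHCA and a methylpiperidine amide in MePipHCA. GW3965 and T0901317 are synthetic LXR agonists without a steroid core.

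Macrophage libraries held 3.86 to 15.69 M exon counts and hepatocyte libraries 6.63 to 18.63 M, and the vehicle and desmosterol macrophage libraries were among the deeper ones. Levels are in CPM, a gene's counts per M counts of all tested genes after TMM scaling, and groups are given as mean ± SD. In macrophages the summed level of 9 macrophage markers was 20800 CPM or more in every library, while the hepatocyte genes Ttr and Fgb and the Kupffer cell marker Clec4f had 0 counts in all 18. All 8 hepatocyte markers together summed to 517 to 895 CPM there, and 7 Kupffer cell markers to 696 to 1310 CPM, of which Csf1r, a gene of macrophages in general, made up 685 to 1300 CPM. Of the 8 hepatocyte markers only Trf, the transferrin gene, had enough counts in macrophages to be tested. Adgre1, the usual macrophage marker, was not among the 9 macrophage markers summed here. The LXR target Abca1, a cholesterol exporter, rose with each ligand in macrophages, by 2.99 ± 0.05 (log2 ± SE) with desmosterol and by 3.76 to 4.33 with the others. Among macrophages 1 library stood apart from its group. The second desmosterol macrophage library differed from the other desmosterol libraries by a chi-square per degree of freedom of 7.28 and 7.36, and those differed from each other by 2.09. By the same measure the 2 hepatocyte DMHCA libraries differed by 12.65, the most of any pair within a group. The pairs of the other hepatocyte groups differed by 5.55 to 7.38.

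Per kb of the counted transcript, the vehicle macrophages held most Mfge8, at 1460 ± 42.7 CPM per kb (n = 3). C1qb at 646 ± 25.9, C1qc at 434 ± 34.8 and C1qa at 157 ± 11.9 CPM per kb came next. Mertk was at 79.9 ± 2.29, Gas6 at 54.2 ± 1.29 and Cd5l at 23.9 ± 0.807 CPM per kb. At the low end were Stab1 at 17.1 ± 0.803, Axl at 15.4 ± 1.17 and Stab2 at 0.213 ± 0.0638 CPM per kb. Neighbours in this order did not overlap between libraries, except Stab1 and Axl, which did. The same order per kb changed in the ligand groups: with GW3965 Mertk stood at 144 ± 3.18 CPM per kb, above C1qa at 113 ± 8.47, and with MePipHCA Mertk at 118 ± 1.61 also stood above C1qa at 78.5 ± 2.06.

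**Figure D1:**
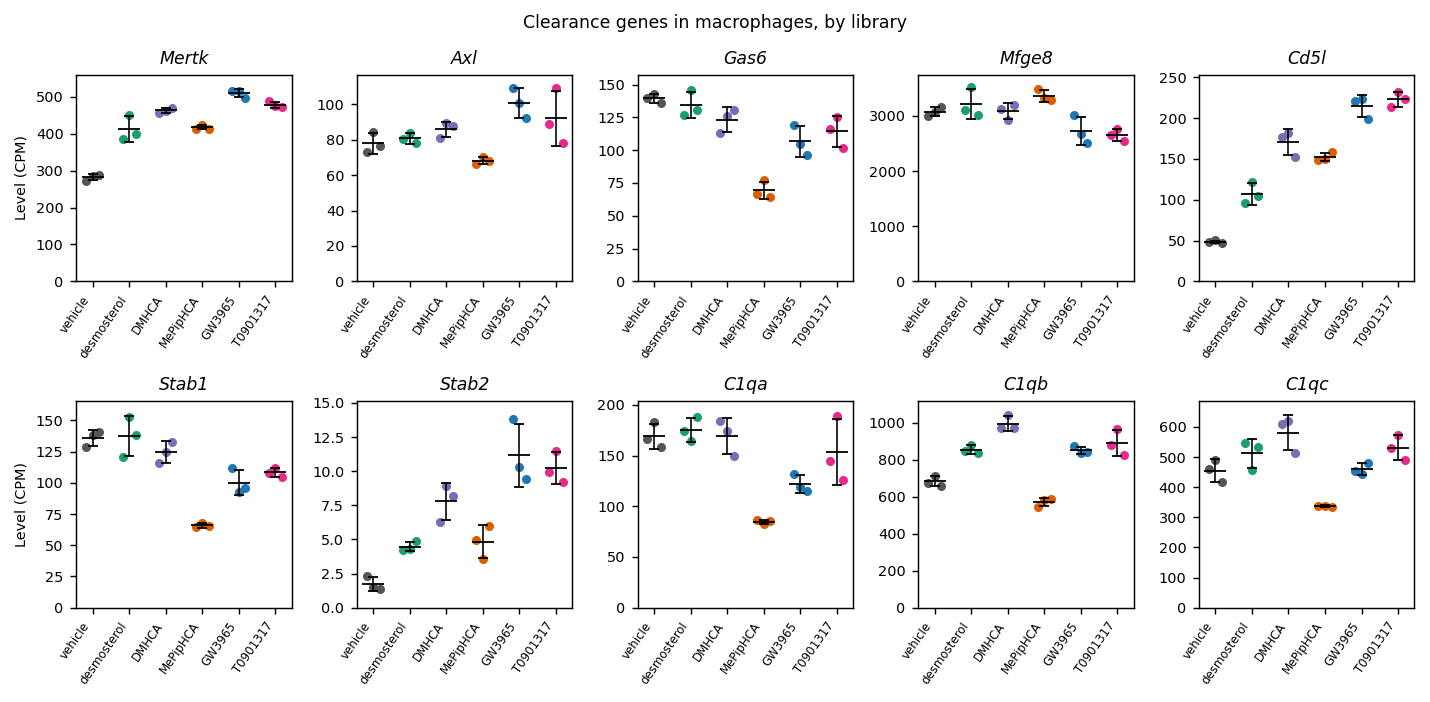
Level (CPM, linear axis from 0) of the 10 genes in each macrophage library, with 1 point per library and the mean ± SD in black for each of the 6 groups (n = 3). Mertk, Cd5l and Stab2 stand above vehicle in every ligand library, while Gas6, Stab1 and the 3 C1q chains are lowest with MePipHCA.

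Each ligand was compared with vehicle to ask which clearance genes it moved, with edgeR's quasi-likelihood test, Benjamini-Hochberg adjustment over all 11544 genes tested and a threshold of 0.05. All 10 genes passed the filter on low counts. The 5 comparisons share the vehicle libraries. With desmosterol 4 of the 10 genes changed, each upward, beside 9.5% of all genes tested (4.93% higher and 4.57% lower). With DMHCA 5 changed, again each upward, beside 11.7% (5.8% higher and 5.9% lower). With MePipHCA 3 rose and 5 fell, beside 35.4% (17.2% higher and 18.3% lower). With GW3965 5 rose and 4 fell, beside 13.2% (6.54% higher and 6.69% lower). With T0901317 5 rose and 3 fell, beside 12.8% (6.29% higher and 6.55% lower). The median log2 change of the 10 genes was 0.12 with desmosterol, 0.24 with DMHCA, -0.23 with MePipHCA, 0.16 with GW3965 and 0.21 with T0901317, beside 0.003 or less in size over all genes. Libraries of ligand and vehicle did not overlap for 4 of the 10 genes with desmosterol (25.1% of all genes) and for 6 with DMHCA (27.5%). They did not overlap for 10 of 10 with MePipHCA (48.1%), 8 with GW3965 (28.4%) and 8 with T0901317 (26.2%).

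Mertk, Cd5l and Stab2 rose with all 5 ligands, a pattern held by 232 of the 11544 genes (2.01%). Gas6, Stab1 and C1qa fell with MePipHCA and GW3965 and did not pass the test in the upward direction with any ligand. C1qb and C1qc rose with some ligands and fell with MePipHCA, as 235 genes (2.04%) rose with at least 1 ligand and fell with at least 1 other. Leaving the second desmosterol library out, 5 genes changed with desmosterol and 10 with MePipHCA, and the counts for DMHCA, GW3965 and T0901317 stayed at 5, 9 and 8.

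Markers of macrophages and of other cells moved as well. The summed level of the 9 macrophage markers was 20800 to 21200 CPM with MePipHCA and 23800 to 24300 CPM in vehicle, and 6 of the 9 fell, among them Csf1r, the receptor of a macrophage growth factor, from 1280 ± 13.6 to 696 ± 9.46 CPM. Csf1r was lower with all 5 ligands. With GW3965 3 of the 9 macrophage markers fell and 1 rose (summed level 22700 to 24000 CPM), and with T0901317 4 fell and 1 rose (22100 to 22800 CPM). The 8 stellate cell and fibroblast markers summed to 86.2 to 103 CPM with MePipHCA, 157 to 221 CPM with DMHCA and 259 to 333 CPM in vehicle, and all 7 that were tested fell with MePipHCA. Of the same 7 markers 6 fell with DMHCA and 1 with GW3965. Mesothelial markers summed to 7.78 to 9.83 CPM with MePipHCA and to 22.4 to 28.4 CPM in vehicle. Sums leave out the 10 genes followed here. The part of these shifts in the falls of Gas6, Stab1 and the C1q genes was not tested, and in bulk RNA fewer cells of a type and less RNA per cell cannot be told apart.

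**Figure D2:**
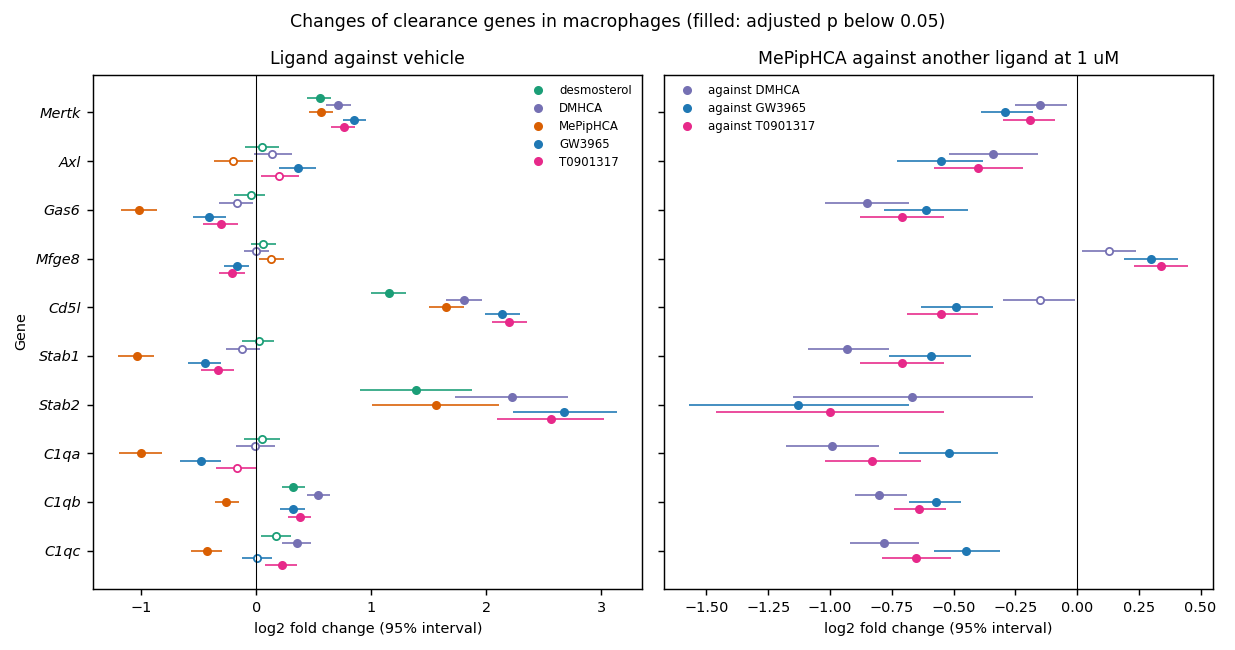
Log2 fold change with its 95% interval for each gene in macrophages, for each ligand against vehicle (left) and for MePipHCA against DMHCA, GW3965 and T0901317 at the same 1 uM (right). Filled points have an adjusted p below 0.05 (edgeR); Cd5l and Stab2 lie farthest to the right against vehicle, and Gas6, Stab1 and C1qa lie near -1 with MePipHCA.

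Mertk (mm10 chr2:128698997-128802188, plus strand), the TAM receptor best known from macrophage engulfment, rose with every ligand. Its level was 273, 285 and 289 CPM in vehicle and 387, 452 and 398 CPM with desmosterol. With DMHCA it was 456, 462 and 471 CPM, with MePipHCA 414, 424 and 414 CPM, with GW3965 516, 517 and 497 CPM, and with T0901317 488, 474 and 472 CPM. Every ligand library was above every vehicle library, and the GW3965 libraries were the highest. The log2 change was 0.55 ± 0.05 with desmosterol (adjusted p 3.13e-11), 0.71 ± 0.05 with DMHCA, 0.56 ± 0.05 with MePipHCA, 0.85 ± 0.05 with GW3965 (2.59e-17) and 0.76 ± 0.05 with T0901317, folds of 1.46 to 1.80. None of the alternatives run moved a Mertk call against vehicle.

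Axl (chr7:25756500-25788733, minus strand), the other TAM receptor measured, changed less. It was at 72.8, 84.4 and 76.5 CPM in vehicle and at 109, 101 and 92.3 CPM with GW3965, a log2 change of 0.36 ± 0.08 (adjusted p 0.000855) with no overlap of the libraries. The change was 0.05 ± 0.08 with desmosterol, 0.14 ± 0.08 with DMHCA, -0.20 ± 0.08 with MePipHCA (adjusted p 0.0674) and 0.20 ± 0.08 with T0901317 (0.101), and none of these passed the test. One library or a processing choice decided some of these. With T0901317 the change was 0.34 ± 0.09 and passed without the third T0901317 library (adjusted p 0.00592). It also passed without the second vehicle library (0.0467) and with replicate number as a block (0.0495). With MePipHCA Axl passed as lower without the first vehicle library (0.0371) or the second desmosterol library (0.0489). It passed as lower too with no filter on low counts (0.0306) and with only the 2 groups compared (0.0152). Mertk and Axl thus stood in another ratio after each ligand. Within a library the log2 ratio of Mertk to Axl was 1.91, 1.75 and 1.92 in vehicle. It was higher in all 15 ligand libraries, by 0.49 with desmosterol, 0.57 with DMHCA, 0.75 with MePipHCA, 0.48 with GW3965 and 0.53 with T0901317. An exact two-sided permutation test gave p = 0.1 for each of the 5 differences, the smallest that 3 against 3 libraries can give, and this ratio was chosen after its values were seen.

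Stab2, a scavenger receptor known mainly from sinusoidal endothelium, was scarce in macrophages, with 15 to 106 counts per library. It was at 2.31, 1.5 and 1.35 CPM in vehicle and at 4.25, 4.28 and 4.86 CPM with desmosterol. With DMHCA it was at 6.29, 8.91 and 8.15 CPM, with MePipHCA at 4.98, 3.54 and 6.01 CPM, with GW3965 at 13.8, 10.3 and 9.42 CPM, and with T0901317 at 9.92, 11.5 and 9.21 CPM. All ligand libraries lay above the vehicle libraries. The log2 change was 1.39 ± 0.24 with desmosterol (adjusted p 5.11e-05), 2.22 ± 0.24 with DMHCA, 1.56 ± 0.27 with MePipHCA, 2.68 ± 0.23 with GW3965 (1.21e-12) and 2.56 ± 0.23 with T0901317. The endothelial marker Clec4g had 0 counts in all 18 macrophage libraries. The 8 sinusoidal endothelial markers summed to 307 to 319 CPM in vehicle, 244 to 273 with desmosterol, 259 to 281 with DMHCA, 204 to 212 with MePipHCA, 242 to 267 with GW3965 and 255 to 267 CPM with T0901317, so every ligand group lay below vehicle. Most of this sum was Fcgr2b, an Fc receptor that macrophages also carry, which fell with all 5 ligands. Their part in the Stab2 changes was not tested. Exons of Stab2 overlap those of an antisense gene, Gm16268, and as no strand setting is given in the headers, counts from the 2 genes cannot be told apart.

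Stab1 (chr14:31139017-31168641, minus strand), the related receptor of macrophages, went the other way. It was at 129, 138 and 141 CPM in vehicle, at 64.3, 67.9 and 65.6 CPM with MePipHCA, at 112, 92.7 and 96.0 CPM with GW3965 and at 108, 112 and 105 CPM with T0901317. None of these libraries reached the lowest vehicle library. Stab1 fell by 1.04 ± 0.08 on the log2 scale with MePipHCA (adjusted p 1.36e-14), by 0.45 ± 0.07 with GW3965 and by 0.33 ± 0.07 with T0901317. With desmosterol (0.02 ± 0.07) and DMHCA (-0.12 ± 0.07) it did not pass the test. On the opposite strand, Nt5dc2 shares 112 of the 10288 annotated exon bases of Stab1. Nt5dc2 was at 13.8 ± 1.34 CPM in vehicle and also fell with MePipHCA, by 0.65 ± 0.16, and its part in the Stab1 counts was not tested.

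Gas6 (chr8:13465374-13494535, minus strand), the bridging ligand of the TAM receptors, fell with the same 3 ligands as Stab1. Its level was 140, 143 and 136 CPM in vehicle and 66.7, 76.9 and 64.5 CPM with MePipHCA, which is 2.03-fold lower (log2 -1.02 ± 0.08, adjusted p 5.27e-14). It was at 119, 105 and 96.0 CPM with GW3965 (-0.41 ± 0.07) and at 116, 125 and 102 CPM with T0901317 (-0.31 ± 0.07), and both changes passed the test. The T0901317 change of Gas6 did not pass without the third T0901317 library (adjusted p 0.11). With desmosterol Gas6 changed by -0.05 ± 0.07 and with DMHCA by -0.17 ± 0.07, neither past the threshold. Its receptor Mertk thus rose with MePipHCA, GW3965 and T0901317 while Gas6 fell with the same 3 ligands. The gene on the opposite strand that shares 34 exon bases with Gas6, Tmem255b, had at most 1 count in any group.

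Mfge8 (chr7:79133768-79149060, minus strand), the bridge to integrins, changed little. It was at 2990, 3080 and 3170 CPM in vehicle, at 3010, 2680 and 2510 CPM with GW3965 and at 2660, 2770 and 2540 CPM with T0901317. One GW3965 library overlapped the vehicle libraries, and no T0901317 library did. Mfge8 fell by 0.17 ± 0.05 with GW3965 (adjusted p 0.0252) and by 0.21 ± 0.05 with T0901317 (0.00416). The GW3965 call was lost without the second or the third vehicle library (adjusted p 0.0663 and 0.119) or without the second or the third GW3965 library (0.118 and 0.232), and the T0901317 call without the third T0901317 library (0.0523). With desmosterol the change was 0.06 ± 0.05, with DMHCA 0.00 ± 0.05 and with MePipHCA 0.13 ± 0.05 (adjusted p 0.0606).

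Cd5l rose most among the genes other than Stab2. Its level was 48.3, 50.1 and 46.8 CPM in vehicle and 95.4, 122 and 104 CPM with desmosterol. With DMHCA it was 177, 182 and 152 CPM, with MePipHCA 149, 150 and 158 CPM, with GW3965 221, 223 and 199 CPM, and with T0901317 214, 232 and 223 CPM. The groups did not overlap with vehicle, and the lowest ligand library was the first with desmosterol. Cd5l rose 2.22-fold with desmosterol (log2 1.15 ± 0.07, adjusted p 5.57e-16), 3.50-fold with DMHCA, 3.14-fold with MePipHCA, 4.40-fold with GW3965 and 4.60-fold with T0901317 (log2 2.20 ± 0.07, adjusted p 5.55e-26).

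The promoters of Cd5l and Stab2, the genes with the 2 largest rises, are shown for the letters of 3 motifs on either strand: the nuclear receptor half-site AGGTCA, the Maf half-site TGCTGA and the ETS core AGGAAG of PU.1 sites. Matches are in capitals, also where the reverse complement stands: TGACCT for the nuclear receptor half-site, TCAGCA for the Maf half-site and CTTCCT for the ETS core. The sequences are the 250 bases before the RefSeq start on GRCm38.p6, read 5′ to 3′ on the gene's strand. Cd5l lies on chromosome 3 (87357881 to 87371074, plus strand), and its promoter is chr3:87357631-87357880. Stab2 lies on chromosome 10 (86841210 to 87007942, minus strand), and its promoter is chr10:87007943-87008192.
Cd5l: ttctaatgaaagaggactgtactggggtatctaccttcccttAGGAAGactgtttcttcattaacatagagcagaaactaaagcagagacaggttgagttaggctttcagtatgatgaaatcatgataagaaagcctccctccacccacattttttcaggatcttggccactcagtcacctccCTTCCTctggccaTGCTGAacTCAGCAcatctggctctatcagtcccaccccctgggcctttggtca
Stab2: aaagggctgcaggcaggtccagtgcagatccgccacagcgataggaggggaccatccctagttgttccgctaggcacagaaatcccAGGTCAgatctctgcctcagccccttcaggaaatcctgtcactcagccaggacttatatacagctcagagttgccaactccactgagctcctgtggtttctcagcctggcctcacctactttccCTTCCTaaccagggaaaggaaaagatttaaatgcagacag

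In the 300 bases from 250 before to 50 after the start, Cd5l held 2 Maf half-sites and 3 ETS cores, and Stab2 held 2 nuclear receptor half-sites and 1 ETS core. Of all 32851 RefSeq promoters of this length, 16.3% held the nuclear receptor half-site, 19.5% the Maf half-site and 35.4% the ETS core. The DR4 element of LXR, a direct repeat of AGGTCA with 4 bases between, was not in either window with up to 3 mismatches, which says only that these letters are not in these 300 bases.

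The genes of the 3 C1q chains lie side by side on the minus strand of chromosome 4 in mm10, C1qb at 136880145 to 136886177, C1qc at 136889802 to 136892914 and C1qa at 136895916 to 136898844. Their counts did not move alike. C1qa was at 166, 183 and 159 CPM in vehicle and at 86.4, 82.1 and 85.1 CPM with MePipHCA, a 2.00-fold fall (log2 -1.0 ± 0.09, adjusted p 5.21e-12). With GW3965 it was at 132, 119 and 115 CPM and fell by 0.48 ± 0.09 (3.96e-05). Both groups lay wholly below vehicle. With T0901317 C1qa was at 145, 189 and 126 CPM, a wide spread that overlapped vehicle, and the change of -0.17 ± 0.09 did not pass (adjusted p 0.218). Without the second T0901317 library it was -0.34 ± 0.08 and passed (0.00166). Desmosterol (0.05 ± 0.08) and DMHCA (-0.01 ± 0.08) gave C1qa levels that overlapped vehicle.

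C1qb was at 675, 713 and 660 CPM in vehicle, at 848, 881 and 834 CPM with desmosterol and at 973, 1040 and 971 CPM with DMHCA. It was at 545, 581 and 588 CPM with MePipHCA, at 874, 838 and 839 CPM with GW3965 and at 880, 967 and 827 CPM with T0901317. No ligand group overlapped vehicle, and MePipHCA alone lay below it. C1qb rose by 0.32 ± 0.05 with desmosterol (adjusted p 7.13e-06), by 0.54 ± 0.05 with DMHCA (3.81e-11), by 0.32 ± 0.05 with GW3965 and by 0.38 ± 0.05 with T0901317, and fell by 0.26 ± 0.05 with MePipHCA (8.44e-05).

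C1qc lay between the other chains. It was at 461, 489 and 416 CPM in vehicle, at 610, 619 and 515 CPM with DMHCA, at 339, 338 and 335 CPM with MePipHCA and at 530, 574 and 490 CPM with T0901317. It rose by 0.35 ± 0.07 with DMHCA (adjusted p 0.000133) and by 0.22 ± 0.07 with T0901317 (0.0192), and fell by 0.43 ± 0.07 with MePipHCA (1.11e-06). The T0901317 call was lost without the third vehicle library (adjusted p 0.186) or without the first or the second T0901317 library (0.0531 and 0.161). With GW3965 the change was 0.01 ± 0.07. With desmosterol it was 0.17 ± 0.06 and did not pass (adjusted p 0.101), but was 0.25 ± 0.06 and passed without the second desmosterol library (0.00378).

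Within each library C1qb rose against C1qa. The log2 ratio of their CPM was 2.03, 1.96 and 2.06 in vehicle and 2.28, 2.43 and 2.15 with desmosterol. It was 2.40, 2.58 and 2.70 with DMHCA, 2.66, 2.82 and 2.79 with MePipHCA, 2.72, 2.82 and 2.87 with GW3965, and 2.61, 2.35 and 2.71 with T0901317. All 15 ligand libraries lay above the 3 vehicle libraries, by a mean of 0.27, 0.54, 0.74, 0.79 and 0.54 in that order of ligands, whether C1qb itself rose or fell. Again the exact two-sided permutation p was 0.1 for each ligand, the smallest this design allows, and the ratio was chosen after its values were seen.

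**Figure D3:**
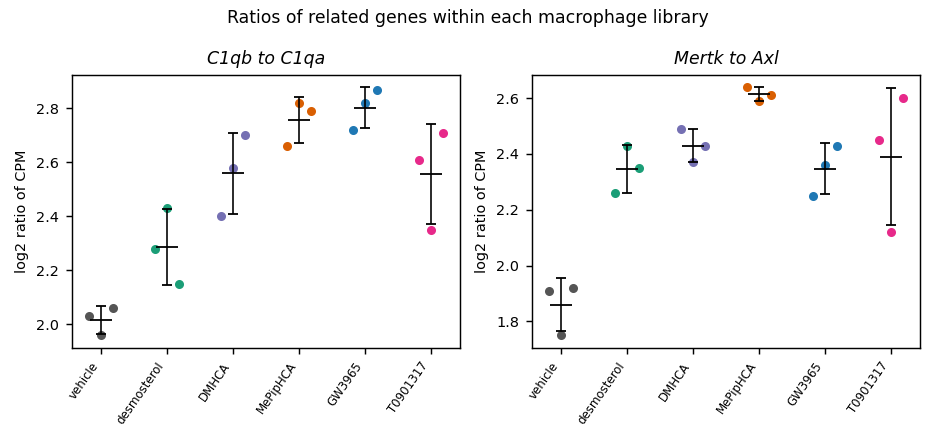
Log2 ratio of C1qb to C1qa and of Mertk to Axl within each macrophage library, with 1 point per library and the mean ± SD in black (n = 3 per group). In both panels the 15 ligand libraries lie above the 3 vehicle libraries, by means of 0.27 to 0.79 for C1qb to C1qa.

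The promoters of C1qb (chr4:136886201-136886450) and C1qc (chr4:136892915-136893164), the chains that rose with some ligands and fell with MePipHCA, are shown in the same way, from RefSeq on GRCm38.p6. C1qa is not in the promoter table.
C1qb: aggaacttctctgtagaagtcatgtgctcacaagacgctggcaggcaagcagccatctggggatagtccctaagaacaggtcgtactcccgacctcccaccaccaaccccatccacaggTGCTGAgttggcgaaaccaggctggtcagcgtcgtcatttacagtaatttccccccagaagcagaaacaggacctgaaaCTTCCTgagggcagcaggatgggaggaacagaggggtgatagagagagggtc
C1qc: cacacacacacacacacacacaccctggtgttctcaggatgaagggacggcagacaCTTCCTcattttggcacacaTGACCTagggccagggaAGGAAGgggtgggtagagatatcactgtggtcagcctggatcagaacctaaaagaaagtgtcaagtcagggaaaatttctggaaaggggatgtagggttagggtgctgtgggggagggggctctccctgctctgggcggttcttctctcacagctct

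C1qb held 1 Maf half-site and 2 ETS cores in its 300 bases, and C1qc held 1 nuclear receptor half-site and 2 ETS cores. C1qc and Stab1 each held a DR4 match with 3 mismatches, a looseness at which 21.9% of all promoters hold one. In total 9 of the 10 genes had a promoter in the table.

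The 4 ligands given at 1 uM were compared with each other in all 6 pairs, to ask whether ligands that differ in structure moved the clearance genes differently. P-values were adjusted over all genes within each pair and not over the 6 pairs. The LXR targets Abca1, Abcg1, Mylip and Srebf1 differed between these ligands too. All 4 were lower with DMHCA than with GW3965 or T0901317 (median log2 -0.45 and -0.46). With MePipHCA 1 was lower against GW3965 and 3 against T0901317 (medians -0.10 and -0.17). Against DMHCA 2 were higher and 1 lower with MePipHCA, and none differed between GW3965 and T0901317. How far these go with the differences below was not tested. MePipHCA against DMHCA, the cholenamides that differ in the amide, gave lower levels with MePipHCA for 8 of the 10 genes and no higher ones, beside 22.9% of all genes (10.7% higher and 12.1% lower). The largest differences were in C1qa (-0.99 ± 0.10, adjusted p 6.89e-11), Stab1 (-0.93 ± 0.08), Gas6 (-0.85 ± 0.08), C1qb (-0.80 ± 0.05) and C1qc (-0.78 ± 0.07). Axl was lower by 0.34 ± 0.09. For Cd5l the difference was -0.15 ± 0.07 (95% interval -0.30 to -0.01) and for Mfge8 0.13 ± 0.05 (0.02 to 0.24), and neither passed the test. Cd5l passed as lower without the third DMHCA library (-0.24 ± 0.08, adjusted p 0.03). Mertk (-0.15 ± 0.05, adjusted p 0.0313) and Stab2 (-0.67 ± 0.24, 0.0375) passed, but Mertk did not pass without any 1 of the 6 libraries compared (adjusted p 0.0518 to 0.116). Stab2 did not pass without the second or the third DMHCA library or the first or the second MePipHCA library (0.084 to 0.174), nor by DESeq2 (0.0518).

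MePipHCA against the synthetic agonists gave calls for all 10 genes, 9 lower and 1 higher with MePipHCA, beside 25.7% of genes called against GW3965 (11.8% higher and 13.9% lower) and 25.9% against T0901317 (12% higher and 13.9% lower). Mfge8 was the gene that was higher, by 0.30 ± 0.05 against GW3965 and by 0.34 ± 0.05 against T0901317. Stab2 was lower by 1.13 ± 0.22 and 1.00 ± 0.23, and Cd5l by 0.49 ± 0.07 and 0.55 ± 0.07. Mertk was lower by 0.29 ± 0.05 and 0.19 ± 0.05. Axl was lower by 0.55 ± 0.09 against GW3965 and by 0.40 ± 0.09 against T0901317. Cell markers also differed in the pairs with MePipHCA. Of the 9 macrophage markers 6 were lower than with DMHCA, and 5 lower and 1 higher than with GW3965 or T0901317. All 7 stellate cell and fibroblast markers tested and 3 of 5 mesothelial markers were lower with MePipHCA in each pair. Their part in the differences of the 10 genes was not tested.

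DMHCA against GW3965 gave 4 higher and 1 lower, beside 3.39% of all genes (1.35% higher and 2.04% lower). C1qa (0.47 ± 0.09, adjusted p 0.000523), C1qc (0.33 ± 0.07), Stab1 (0.33 ± 0.08) and C1qb (0.22 ± 0.05) were higher with DMHCA, and Cd5l was lower (-0.33 ± 0.07). Without the third DMHCA library 3 of these 5 calls were left, Cd5l (adjusted p 0.0729) and Stab1 (0.0818) having been lost. Stab1 was also lost without the second GW3965 library (0.0674), and C1qb without the second DMHCA library (0.0671). Without the first GW3965 library Gas6 (0.0283) and Mfge8 (0.0045) were added as higher with DMHCA. Against T0901317, DMHCA gave higher Mfge8 (0.22 ± 0.05, adjusted p 0.00979) and lower Cd5l (-0.39 ± 0.07, 0.00017), beside 5.12% of all genes (2.25% higher and 2.87% lower). The Mfge8 call was lost without the third DMHCA library (0.0861) or the third T0901317 library (0.0869), and 4 genes were called without the second T0901317 library, where C1qa (0.0115) and C1qb (0.0064) were added.

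GW3965 and T0901317, which share no core structure, gave no call among the 10 genes by edgeR or by DESeq2, beside 0.0173% of all genes, and 2 genes were at an unadjusted p below 0.05. These were C1qa (GW3965 minus T0901317 -0.31, 95% interval -0.49 to -0.12, adjusted p 0.528) and C1qc (-0.20, -0.34 to -0.07, adjusted p 0.636). The interval was -0.01 to 0.20 for Mertk, -0.20 to 0.08 for Cd5l and -0.26 to 0.52 for Stab2. Desmosterol was given at 10 uM and is not compared with the others here.

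Further genes of the uptake pathway were taken from lists, chosen with earlier results known. The share of all genes that changed, given above for each ligand, is the measure for these counts: 4.93 to 6.54% were higher and 4.57 to 6.69% lower with desmosterol, DMHCA, GW3965 or T0901317, and 17.2% higher and 18.3% lower with MePipHCA. For the ligands other than MePipHCA, a single gene of 13 or 14 is near those shares. Of 14 other engulfment receptors tested, desmosterol raised 3 and lowered 2, DMHCA 5 and 2, MePipHCA 5 and 5, GW3965 5 and 2, and T0901317 4 and 2. Msr1, a scavenger receptor, rose with all 5 ligands, from 137 ± 3.91 CPM in vehicle to 263 ± 16.1 CPM with desmosterol (0.93 ± 0.06) and to 171 ± 13.8 CPM with GW3965 (0.32 ± 0.06). Scarb1, which takes up cholesterol esters and can bind phosphatidylserine, fell with desmosterol, DMHCA and MePipHCA, by 0.74 ± 0.06, 0.68 ± 0.07 and 1.02 ± 0.07, and rose by 0.20 ± 0.06 with GW3965 and with T0901317. Itgax, an integrin subunit, fell by 0.68 ± 0.05 with GW3965 and by 0.82 ± 0.05 with T0901317, and Itgb3, a subunit of the integrin that binds Mfge8, by 0.42 ± 0.07 and 0.52 ± 0.07.

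Of 13 other bridging and opsonin genes tested, 2 rose with each ligand. The number that fell was 1 with desmosterol, 4 with DMHCA, 7 with MePipHCA and 3 with GW3965 and with T0901317, beside 4.57%, 5.9%, 18.3%, 6.69% and 6.55% of all genes lower. Tgm2, a transglutaminase that works with integrins in uptake, rose with all 5, from 304 ± 25.9 CPM to 722 ± 51.8 CPM with MePipHCA (1.24 ± 0.06). Calr, the uptake signal calreticulin, rose with all 5 too, by 0.17 ± 0.05 to 0.45 ± 0.05. Thbs1, a bridging matrix protein, fell with all 5, from 121 ± 15 CPM to 28.3 ± 1.44 CPM with MePipHCA (-2.10 ± 0.12). With MePipHCA the complement gene C3 fell by 1.58 ± 0.12 and Fn1, the matrix protein fibronectin, by 1.85 ± 0.13, and with DMHCA they fell by 0.42 ± 0.11 and 0.55 ± 0.12. Stellate cell and fibroblast markers fell with the same ligands, and their part in these falls was not tested.

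Among 13 genes of the engulfment machinery, 1 rose and none fell by edgeR with desmosterol, 2 rose with each of DMHCA, GW3965 and T0901317, and 4 rose and 5 fell with MePipHCA, beside 9.5%, 11.7%, 13.2%, 12.8% and 35.4% of all genes changed with these ligands in the same order. Dock1, an activator of Rac, rose by 0.22 ± 0.07 to 0.29 ± 0.07 with every ligand but MePipHCA (0.11 ± 0.07). Of 13 genes of phagosome maturation and digestion, desmosterol and DMHCA each gave 3 higher and 1 lower, MePipHCA 6 and 2, and GW3965 and T0901317 each 3 and 3. Ctsl, a lysosomal protease, rose with all 5 ligands, from 4200 ± 109 CPM to 8650 ± 84.0 CPM with MePipHCA and to 5180 ± 58.3 CPM with T0901317. Ucp2, a mitochondrial carrier tied to continued uptake, fell with all 5, from 679 ± 28.1 CPM to 338 ± 6.36 CPM with MePipHCA. Of 6 genes that signal to or restrain phagocytes, desmosterol gave 2 higher and 1 lower, DMHCA 3 and 2, MePipHCA 1 and 2, and GW3965 and T0901317 each 2 and 2. Cd47, a signal against uptake, rose with each ligand but MePipHCA (by 0.21 ± 0.06 to 0.38 ± 0.06), and Sirpa, its receptor, fell with each but desmosterol (by 0.14 ± 0.04 to 0.41 ± 0.04).

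Of 7 nuclear receptors and partners, desmosterol gave 2 higher and 2 lower (9.5% of all genes changed) and DMHCA 2 higher and 0 lower (11.7%). MePipHCA (35.4%), GW3965 (13.2%) and T0901317 (12.8%) each gave 1 higher and 0 lower. Among them, Nr1h3, which encodes LXR alpha, rose by 0.32 ± 0.06 with desmosterol and by 0.29 ± 0.07 with DMHCA, and its change was 0.01 ± 0.07 with MePipHCA.

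Over the 18 macrophage libraries, the genes most like each member in log2 CPM were looked up among 9378 genes with a mean of at least 5 CPM. These libraries share groups, so the values describe this set and carry no p. Cd5l was most like Abcc3 (Pearson r 0.993), Cd38 (0.988) and Il18bp (0.987). Mertk was most like Pik3cd (0.981), Lpl (0.977) and Cd97 (0.971), and Stab2 like Rtn4 (0.960), Lpl (0.952) and Syn1 (0.951). Gas6 and Stab1 were the nearest to each other of all these genes (0.975), followed for Gas6 by Thbs1 (0.966) and Tep1 (0.957). C1qa was most like Timp2 (0.959), C1qb like Fcgr1 (0.963), an Fc receptor, and C1qc like Ptpn1 (0.937). Among the 10 genes themselves r was 0.97 for Mertk and Cd5l, 0.94 for Cd5l and Stab2, 0.91 for Gas6 and C1qa, 0.90 for C1qb and C1qc, and 0.67 for C1qa and C1qb.

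In hepatocyte cultures the clearance genes other than Mfge8, Gas6 and Stab1 were scarce. The 8 hepatocyte markers summed to 33200 CPM or more in each library and 10 macrophage markers to 330 to 579 CPM. Of those 10 macrophage markers, 9 were found in the macrophage counts and summed there, so the sums differ in content. In vehicle Mfge8 was at 298 and 265 CPM, Gas6 at 53.2 and 44.9 CPM and Stab1 at 23.3 and 25.2 CPM. Stab2 was at 8.71 and 7.26 CPM, Mertk at 3.73 and 3.17 CPM and C1qb at 3.58 and 3.63 CPM. C1qa, C1qc, Cd5l and Axl were lower still, at 2.03, 2.37, 1.15 and 0.538 CPM on average. The levels of such genes rest on few counts, 2 to 61 per library for Axl and 6 to 208 for Cd5l.

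Cd5l was the gene of the 10 that passed the test in hepatocyte cultures, and Axl passed too with GW3965 when only the 2 groups were fitted (adjusted p 0.0434). Cd5l rose with GW3965, from 1.40 and 0.907 CPM to 14.5 and 10.8 CPM (log2 3.38 ± 0.45, adjusted p 4.65e-05), beside 0.478% of 13176 genes called. With T0901317 it rose to 8.57 and 4.38 CPM (2.43 ± 0.46, adjusted p 0.00463), beside 0.941%. The T0901317 call was lost without the second vehicle library (adjusted p 0.0721) or without the first T0901317 library (0.136). With desmosterol Cd5l was at 3.25 and 3.68 CPM (1.52 ± 0.48, adjusted p 0.257), with DMHCA at 1.17 and 2.82 CPM and with MePipHCA at 3.06 and 2.75 CPM (1.26 ± 0.48, 0.232). No gene of the 10 was called by edgeR or DESeq2 with desmosterol (0.364% of all genes), DMHCA (0.0%) or MePipHCA (2.17%), and 2, 0 and 2 of them were at an unadjusted p below 0.05.

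The GW3965 and vehicle libraries of hepatocytes did not overlap for 9 of the 10 genes, Gas6 being the exception, beside 38.8% of all genes. With the other ligands the number was 4 with desmosterol (39.5%), 3 with DMHCA (30.9%), 3 with MePipHCA (43.5%) and 5 with T0901317 (42.3%). With GW3965 Axl was at 3.42 and 3.45 CPM against 0.622 and 0.453 CPM in vehicle (2.61 ± 0.87, adjusted p 0.285). C1qa was at 5.44 and 3.96 CPM against 1.63 and 2.42 CPM (1.24 ± 0.53, 0.476), and C1qc at 6.07 and 3.96 CPM against 2.18 and 2.57 CPM (1.09 ± 0.53, 0.591).

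Clec4f, a defining marker of Kupffer cells, the macrophages of the liver, moved with Cd5l in these cultures. It was at 2.10 and 0.605 CPM in vehicle and at 13.3 and 7.75 CPM with GW3965 (2.81 ± 0.47, adjusted p 0.00134), and at 6.25 and 3.29 CPM with T0901317 (1.68 ± 0.48, 0.095). Csf1r, from 2.96 and 2.27 CPM to 8.30 and 6.28 CPM with GW3965, did not pass (1.45 ± 0.47, adjusted p 0.253), and Vsig4 was at 1.24 and 2.27 CPM in vehicle and 2.58 and 1.08 CPM with GW3965. Timd4 was at 0.0 ± 0.0 CPM in vehicle and 1.02 ± 0.725 CPM with GW3965, and Fcna at 0.346 ± 0.0612 and 2.59 ± 0.0155 CPM. Marco was at 15.2 ± 1.66 CPM in vehicle and 9.87 ± 2.03 CPM with GW3965 (-0.64 ± 0.26, adjusted p 0.437), and Cd163 at 4.84 ± 1.51 and 3.94 ± 1.73 CPM (-0.34 ± 0.41). With T0901317 the changes were -0.15 ± 0.26 for Marco, -0.76 ± 0.42 for Cd163 and -0.23 ± 0.50 for Csf1r, none past the threshold. The 7 Kupffer cell markers, without Cd5l, summed to 23.3 and 29.0 CPM in vehicle, 29.4 and 44.8 CPM with GW3965 and 18.9 and 32.0 CPM with T0901317. The 10 macrophage markers summed to 383 and 434 CPM in vehicle, 477 and 538 CPM with GW3965 and 503 and 579 CPM with T0901317. For 7 markers of resident peritoneal macrophages these sums were 94.5 and 133, 74.2 and 98.1, and 72.6 and 90.6 CPM. The part of the cells behind these markers in the rise of Cd5l was not tested. The LXR target Abca1 rose in hepatocytes with GW3965 (2.24 ± 0.09) and T0901317 (2.40 ± 0.09), was not called with desmosterol or DMHCA, and fell by 0.78 ± 0.09 with MePipHCA.

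**Figure D4:**
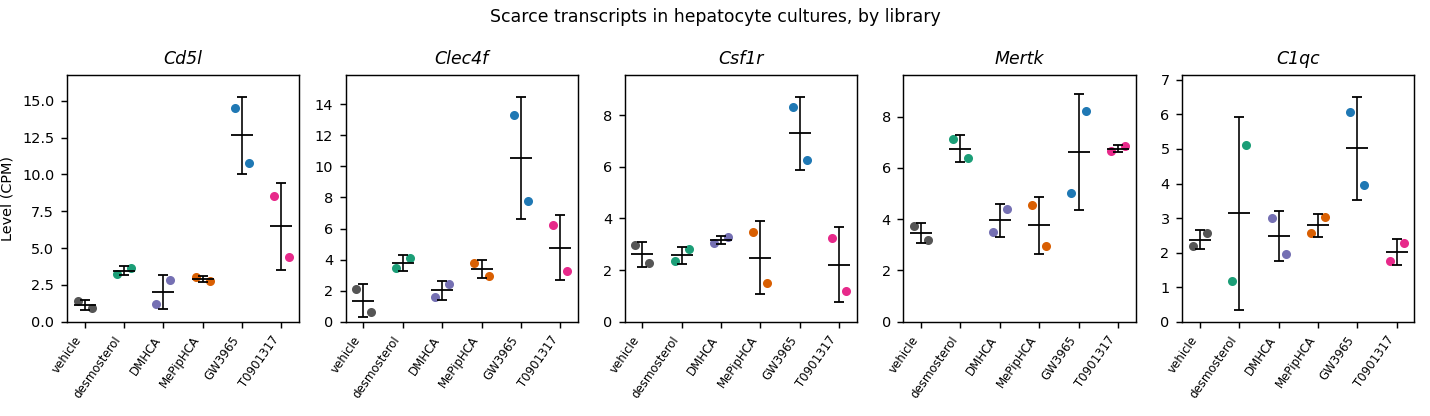
Level (CPM, linear axis from 0) of Cd5l, the Kupffer cell marker Clec4f, Csf1r, Mertk and C1qc in each hepatocyte library, with 1 point per library and the mean ± SD in black (n = 2 per group). Cd5l and Clec4f are highest with GW3965, where Cd5l reached 14.5 and 10.8 CPM and Clec4f 13.3 and 7.75 CPM.

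Mertk was at 7.12 and 6.37 CPM with desmosterol, 5.02 and 8.21 CPM with GW3965 and 6.67 and 6.84 CPM with T0901317 in hepatocyte cultures, all above vehicle, and its changes of 0.95 ± 0.36, 0.93 ± 0.36 and 0.95 ± 0.36 did not pass the test (adjusted p 0.435, 0.392 and 0.251). Whether a ligand's change differed between the cell types was tested as an interaction over 13700 genes. For Mertk no such difference passed, and the intervals of macrophages minus hepatocytes ran from -0.83 to 0.09 with desmosterol and from -0.54 to 0.35 with GW3965. Of the 10 genes the change differed by edgeR for 2 with DMHCA (beside 2.75% of all genes) and 4 with MePipHCA (9.66%). It differed for 4 with GW3965 (3.11%) and 2 with T0901317 (3.64%). DESeq2 gave 2, 5, 6 and 2 in the same order. The added genes were C1qb with MePipHCA (DESeq2 adjusted p 0.0166), and Cd5l (0.0141) and Mfge8 (0.0445) with GW3965. With desmosterol none was called by edgeR or DESeq2 (2.53%), with 3 at an unadjusted p below 0.05. Stab2 was among the genes that differed with all 4 ligands at 1 uM, rising in macrophages, while in hepatocyte cultures its changes ran from -0.06 ± 0.25 to 0.44 ± 0.24 and did not pass the test. The LXR targets Abca1, Abcg1, Mylip and Srebf1 differed between the cell types as well. With desmosterol, DMHCA and GW3965 3 of these 4 changed more upward in macrophages (median log2 difference 1.75, 2.45 and 1.56). With MePipHCA all 4 did (3.34), and with T0901317 3 did and 1 went the other way (1.64). In hepatocyte cultures 8 sinusoidal endothelial markers summed to 44.9 to 60.1 CPM. The part of such cells and of the LXR response in the differences of the 10 genes was not tested. Cell type goes with medium and with the date in the sample titles, so these cannot be told apart.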

How the data were processed

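Polyadenylated RNA of 30 libraries (18 macrophage, 12 hepatocyte) was sequenced from dUTP libraries. Per the submitters' processing notes and the file headers, the authors aligned reads with STAR to mm10 and counted them over exons with HOMER, with 1 condensed transcript per gene and no adjustment. Versions are not given in the sources used here. The deposited values are whole-number counts per gene, and the authors' deposited RPKM tables, which follow from counts per length to within 0.0721% in macrophages and 0.0955% in hepatocytes, served as an alternative for levels only. RPKM comes from another transcript for 2777 macrophage and 3200 hepatocyte genes.

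Counts were filtered with filterByExpr, scaled by TMM and tested with edgeR 4.0.16 (limma 3.58.1, R 4.3.3) by the quasi-likelihood test, with all 6 groups of a cell type in 1 fit and no block. This left 11544 genes and 12 residual degrees of freedom in macrophages, 13176 and 6 in hepatocytes, and 13700 and 18 in a joint fit for differences between cell types. P-values were Benjamini-Hochberg adjusted over all genes of a fit, at a threshold of 0.05. Library totals ran from 3.86 to 18.63 M counts, and few counts limit Stab2 in macrophages and most of the 10 genes in hepatocytes. Groups came from the sample labels.

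Alternatives were DESeq2 1.42.0, another scaling, no filter, thinning to the shallowest library, only the groups compared, a replicate block, and leaving out each library. The 10 genes and all lists were chosen with earlier results of these data known. The genes named are the 10, the LXR targets, and, per ligand and pathway list, up to 3 genes past the threshold with the largest changes in macrophages. The 3 genes most correlated with each of the 10 and listed markers were also named.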

Additional observations from a re-analysis of the deposited data

Results flagged for a closer look

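The response to a ligand differed between macrophages and hepatocytes for 12 pairs of gene and ligand, by the interaction term of edgeR's quasi-likelihood fit of both cell types (adjusted p below 0.05 over 13700 genes). Over all genes the share that differed ran from 2.53% with desmosterol to 9.66% with MePipHCA. Values are log2 changes in macrophages minus those in hepatocytes. The 4 LXR targets Abca1, Abcg1, Mylip and Srebf1 differed too. Their median difference was 2.45 with DMHCA, 3.34 with MePipHCA, 1.56 with GW3965 and 1.64 with T0901317. How far the differences below go with those of the LXR targets was not tested. For Stab2 the difference was 2.22 ± 0.34 with DMHCA (adjusted p 2e-05), 1.63 ± 0.36 with MePipHCA (0.00107), 2.23 ± 0.33 with GW3965 (9.55e-06) and 2.19 ± 0.33 with T0901317 (1.64e-05), with 160 counts over the 2 hepatocyte vehicle libraries. With libraries thinned to the shallowest the MePipHCA difference of Stab2 did not pass (0.0962).

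For Stab1 the difference was -0.96 ± 0.15 with MePipHCA (adjusted p 7.62e-06) and -0.59 ± 0.15 with GW3965 (0.0129), and for Gas6 it was -0.80 ± 0.14 with MePipHCA (7.81e-05). In hepatocytes Stab1 changed by -0.07 ± 0.16 and 0.11 ± 0.16 with these ligands, and Gas6 by -0.19 ± 0.13. The GW3965 difference of Stab1 did not pass without the first hepatocyte vehicle library (0.145), without the first hepatocyte GW3965 library (0.0665) or thinned (0.374).

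For C1qa the difference was -1.57 ± 0.39 with MePipHCA (0.00431) and -1.78 ± 0.36 with GW3965 (0.00115), over 37 hepatocyte vehicle counts. Neither passed without the first hepatocyte vehicle library (0.146 and 0.117), and the GW3965 difference did not pass thinned (0.164). For C1qb it was 1.30 ± 0.33 with DMHCA (0.0182), which did not pass without either hepatocyte vehicle library (0.199 and 0.0511), without the second hepatocyte DMHCA library (0.145) or thinned (0.212).

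For Axl the difference was -2.24 ± 0.51 with GW3965 (0.00531), over 11 hepatocyte vehicle counts, and it did not pass without the first hepatocyte vehicle library (0.103) or thinned (-0.98 ± 0.57, 0.519). For Mfge8 it was -0.40 ± 0.11 with T0901317 (0.0248), which did not pass without the third macrophage vehicle (0.063) or T0901317 library (0.0793), or without the second hepatocyte vehicle (0.178) or T0901317 library (0.202). Hepatocyte cultures also held transcripts of other cells: 8 sinusoidal endothelial markers summed to 44.9 to 60.1 CPM and 10 macrophage markers to 330 to 579 CPM. The part of these cells in the differences was not tested. Cell type goes with medium and title date in this series, so these cannot be told apart.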

How the results depend on the processing

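Against vehicle in macrophages, all 64 alternative counts of the 10 genes called were within 1.5 times the count given, and of 640 alternative log2 changes 14 gained and 9 lost a call. No called change of the 10 genes reversed. With no filter on low counts, 1 gene (C1qa, adjusted p 0.00998) was called between GW3965 and T0901317 and 7 differed between cell types with GW3965. With libraries thinned to the shallowest, 1 gene differed between cell types with DMHCA and 2 with GW3965. With only the 2 groups compared, 2 genes (Axl added, 0.0434) were called with GW3965 in hepatocytes. Without the second desmosterol macrophage library, an alternative added after seeing the data, 4 genes were called between DMHCA and T0901317. Leaving out single libraries gave 1 to 4 genes for DMHCA against T0901317, 3 to 7 for DMHCA against GW3965 and 0 to 1 for T0901317 in hepatocytes. It gave 0 to 1 for the difference between cell types with desmosterol, 1 to 2 with DMHCA, 2 to 6 with GW3965 and 1 to 2 with T0901317.

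Over all genes, desmosterol called 1097, but 633 thinned and 665 without the second vehicle library; DMHCA called 1350, but 898 without that library. DMHCA against T0901317 called 591, but 336 without the third DMHCA library, and GW3965 against T0901317 called 2, but 15 with no filter. In hepatocytes 22 of the alternative counts over all genes moved by more than 1.5 times and 28 did not. Desmosterol called 48 genes there (15 without its second library, 139 with no filter), DMHCA 0 (27 without its second library), MePipHCA 286 (114 without its second library, 490 with only the 2 groups), GW3965 63 (28 without its first library, 163 with no filter) and T0901317 124 (48 without its first library, 256 with no filter). Differences between cell types called 346, 377, 426 and 498 genes with desmosterol, DMHCA, GW3965 and T0901317, but 190, 251, 256 and 311 thinned and 207, 202, 260 and 331 without the first hepatocyte vehicle library. The labels do not say whether replicate numbers pair libraries, and the main fits hold no block. In macrophages, deviations of same-numbered libraries had a median correlation of 0.026 (2 of 45 pairs over 0.1). Pairs with different numbers had a median of -0.013 (1 of 90 over 0.1). In hepatocytes the medians were 0.004 and -0.004, which mirror each other because each group has 2 libraries. Of the macrophage libraries 14 of 18 correlated best with their own number, and of the hepatocyte libraries 10 of 12, so some pairing by number remains possible. With a replicate block 4, 5, 8, 9 and 9 genes were called in macrophages with desmosterol, DMHCA, MePipHCA, GW3965 and T0901317. Levels per kb from the deposited RPKM moved by more than 1 SD for 9 macrophage and 7 hepatocyte vehicle levels. All 10 genes were lower in RPKM by a similar proportion within a cell type, and their order in vehicle stayed the same. In vehicle macrophages Mertk was at 70.1 in RPKM against 79.9 CPM per kb, and Mfge8 at 1280 against 1460. The causes of these shifts were not tested.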
